A study of Mus musculus with 2 samples.

Results

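The replication-dependent core histone genes encode the H2A, H2B, H3 and H4 proteins around which DNA is wound. They are present in many near-identical copies, packed into clusters together with genes of the linker histone H1, and are transcribed mainly in S phase, when newly made DNA needs new nucleosomes. Their short genes mostly lack introns, and their mRNAs end in a conserved stem-loop instead of a poly(A) tail. Embryonic stem cells divide rapidly and spend much of their cycle in S phase.

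Members were the protein-coding RefSeq genes of mm10 (GRCm38.p6) whose symbols start with H2ac, H2bc, H3c or H4c followed by digits, a rule that uses no measured value. It found 57 genes, of which 17 were H2A, 16 H2B, 12 H3 and 12 H4 genes. Their median annotated length was 487 bp and 52 were shorter than 1000 bp, the exceptions being the H2B genes H2bc4, H2bc6, H2bc21, H2bc22 and H2bc23. They overlap 13 windows of 50 kb, and 8 of these are among the 43941 windows analysed here. The first cluster of chromosome 13 (21715711 to 22043658) holds 21 genes, the second (23531044 to 23934913) 26 and the chromosome 3 cluster (96219885 to 96270192) 10. A window with values was at hand for 29 genes, 16 in the first cluster and 13 in the second, and 27 of them lie wholly in analysed windows. The 2 windows of the chromosome 3 cluster were not analysed here, nor was 1 of 4 windows in the first cluster (H2bc23, H2ac23, H4c17, H4c18, H2ac24 and part of H2bc22). In the second cluster 2 of 7 were not analysed, from H4c8 to H3c7 and from H4c6 to H2bc6.

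The assay was ATAC-seq, which reads out open chromatin by where a transposase can insert its adapters, on 2 replicates of F121-6, a hybrid mouse embryonic stem cell line of 1 group. The labels describe a female 129 x cas line, so that each cell carries a 129 and a castaneus (CAS) chromosome set, grown in serum medium with LIF on mitomycin-C-inactivated MEFs (mouse embryonic fibroblast feeders). Nothing says that the replicates came from separate cultures, so their spread may be technical. The table gives a count per window for each allele, with column totals for 129 and CAS of 44026 and 46128 (replicate 1), then 59812 and 59995 (replicate 2). What 1 count stands for is not given in the sources used here. Below, a window is called open for its high count alone, and how counts relate to the degree of openness was not tested. How reads that match several histone copies were treated is not given either.

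The stem cell markers Pou5f1, Nanog, Sox2, Esrrb, Klf4, Zfp42, Dppa3 and Tfcp2l1 had a median of 23.85 counts per window, summed over alleles and replicates, and a range of 7.5 to 41.5. The fibroblast markers Col1a1, Col1a2, Col3a1, Thy1, Twist2, Prrx1, Pdgfra and Dcn had a median of 4.5 and a range of 1.5 to 7.0. All windows of the genome had a median of 3.0. These values are means over the windows of a gene, and the 3 windows of Prrx1 had 2, 1 and 15 counts. None of the 8 fibroblast markers was at 0, beside 21.7% of all single windows, and some markers sum several windows. Windows with 1 coding gene outside the histone set had a median of 4.0 counts, near the 4.5 of these markers. The part of feeder cells in the values below was not tested.

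Promoter sequence is shown first because short strings in it part most H4 promoters from those of the other families. RefSeq's table for GRCm38.p6 had a promoter, from 250 bases before to 50 bases after the start, for 52 of the 57 genes. The search covered both strands for 4 strings: CCAAT, bound by NF-Y; TATAAA, the TATA box; ATTTGCAT, the octamer bound by Oct-1 (Pou2f1); and GGTCCG, a hexamer in site II of mammalian H4 promoters, the element bound by HINFP. No string contains another, and 1 promoter was counted per gene, that of its first listed start. Every H2A, H2B and H3 promoter in the table held CCAAT (17, 14 and 10 promoters), and 3 of 11 H4 promoters did (27.3%), against 37.9% of all 27025 promoters. At least 2 copies stood in 40 of the 52 histone promoters (76.9%), against 12.2% of all promoters. The hexamer showed the reverse: 10 of 11 H4 promoters (90.9%) held it, against 1 of 14 H2B, 1 of 10 H3, 0 of 17 H2A and 8.39% of all promoters. The octamer was in 6 of 17 H2A and 6 of 14 H2B promoters, in 0 of 10 H3 and 0 of 11 H4 promoters, and in 1.75% of all. For H2bc6, which has a pair of annotated starts, the upstream one was counted, and the promoter of the other start does hold the octamer. TATAAA was in 30 of 52 histone promoters (57.7%), against 14.2% of all. Matches counted at any position, so they need not lie where a TATA box acts. That of H4c11, for example, is not within the 150 bases before its start. Promoters of neighbouring H2A and H2B genes that face away from each other overlap, so 1 site can count in both families and their counts are not independent. Both promoters held the octamer in the pairs H2ac12 with H2bc12, H2ac8 with H2bc8 and H2ac1 with H2bc1. The matches describe letters, and binding was not measured.

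**Figure D1:**
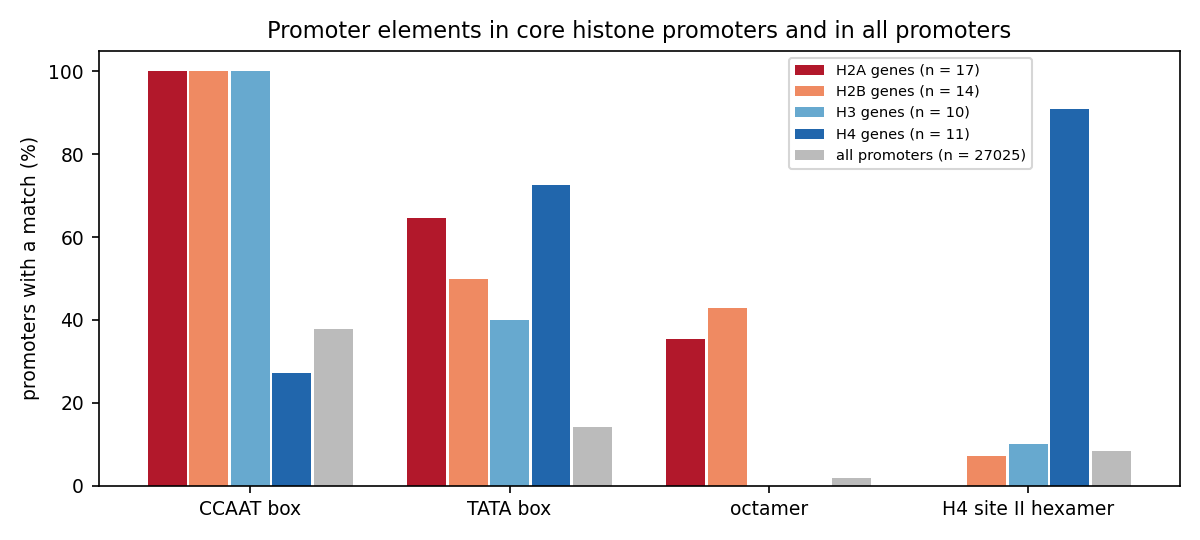
Share of promoters (%) with a match to each of 4 sequence elements, on either strand from 250 bases before to 50 bases after the start, for H2A, H2B, H3 and H4 genes and, in grey, for all promoters of the table. CCAAT boxes are in every H2A, H2B and H3 promoter, and the H4 hexamer is in 90.9% of H4 promoters.

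Many H2A and H2B genes are arranged head to head on a shared promoter. Among the 52 genes with a listed promoter, starts facing away from each other were found for 9 pairs, 6 of them in analysed windows. The 5 genes without one, H2bc4 and H2bc21 among them, could not be paired, so there may be more pairs. In the pairs found, 163 to 280 bases (median 179) separate the starts. Below, 3 of these intervals are printed, each 5′ to 3′ on the plus strand up to the base before the right-hand start. The H2bc13 and H2ac13 pair lies in an open window, as does H2ac15 and H2bc15. The H2bc1 and H2ac1 pair, of the testis-specific histones TH2B and TH2A, lies in the least open of the analysed histone windows that had counts. Capitals mark the 4 strings or their reverse complements.
H2bc13-H2ac13 (chr13:21716184-21716411): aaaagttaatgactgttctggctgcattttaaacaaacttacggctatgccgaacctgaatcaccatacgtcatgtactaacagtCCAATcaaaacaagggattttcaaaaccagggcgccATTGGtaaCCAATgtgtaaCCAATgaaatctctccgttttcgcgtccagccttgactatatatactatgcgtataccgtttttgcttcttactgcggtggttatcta
H2ac15-H2bc15 (chr13:21753913-21754075): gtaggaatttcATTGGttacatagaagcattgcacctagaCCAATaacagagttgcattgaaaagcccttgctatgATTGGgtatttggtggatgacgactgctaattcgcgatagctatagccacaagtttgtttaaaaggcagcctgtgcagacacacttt
H2bc1-H2ac1 (chr13:23934187-23934436, plus strand, the 250 bases next to H2ac1): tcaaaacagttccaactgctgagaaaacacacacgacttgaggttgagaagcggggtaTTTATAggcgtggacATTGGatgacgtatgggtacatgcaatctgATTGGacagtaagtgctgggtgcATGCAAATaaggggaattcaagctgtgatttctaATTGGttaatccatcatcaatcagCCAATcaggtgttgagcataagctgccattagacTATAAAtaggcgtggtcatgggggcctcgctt
The first holds 4 CCAAT boxes and the second 3. The third holds 4, together with 1 octamer and 2 TATA boxes, of which one faces each gene.

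Single promoters of H4 and H3 genes in analysed windows are given as the 150 bases before the start, read 5′ to 3′ on the gene's own strand, to show the H4 hexamer in capitals beside an H3 promoter with CCAAT and TATA boxes.
H4c11 (chr13:21734884-21735033, plus strand): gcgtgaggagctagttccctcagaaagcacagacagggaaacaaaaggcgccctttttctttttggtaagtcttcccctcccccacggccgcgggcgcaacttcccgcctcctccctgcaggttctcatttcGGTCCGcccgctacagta
H4c9 (chr13:22041363-22041512, minus strand): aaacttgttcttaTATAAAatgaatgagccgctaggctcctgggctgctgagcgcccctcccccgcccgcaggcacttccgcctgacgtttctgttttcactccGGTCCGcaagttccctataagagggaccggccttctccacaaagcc
H4c3 (chr13:23698459-23698608, minus strand): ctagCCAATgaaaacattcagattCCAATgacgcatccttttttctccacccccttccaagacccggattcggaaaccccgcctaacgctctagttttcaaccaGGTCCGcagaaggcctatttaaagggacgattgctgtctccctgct
H3c10 (chr13:21717478-21717627, plus strand): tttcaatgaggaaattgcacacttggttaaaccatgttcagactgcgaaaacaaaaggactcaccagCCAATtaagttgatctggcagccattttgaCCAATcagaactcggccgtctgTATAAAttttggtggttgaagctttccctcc
The hexamer stands once in each of these H4 promoters and not in that of H3c10.

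Most of the analysed histone windows were among the most open windows of the table. Their median was 23 counts (summed over both alleles and replicates; range 0 to 28), against 3.0 counts (0 to 49) over all 43941 windows. The 90th percentile of all windows was 12 counts, and 5 of the 8 histone windows (62.5%) reached it, against 10% of all windows. Per replicate, the histone windows averaged 8.75 counts in replicate 1 and 8.88 in replicate 2, while all windows averaged 2.05 and 2.73. The ratio of these means was therefore 4.26 in replicate 1 and 3.26 in replicate 2, or 3.76 ± 0.714 (SD, n = 2). Windows are not replicates, so these levels are a description with no test.

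The first cluster was open in each of its 3 analysed windows. The window at 22000001 to 22050000, with H2ac12, H2bc12, H4c9, H2ac11, H2bc11 and the thymus serine protease gene Prss16, had 7 and 8 counts on 129 and 7 and 6 on CAS (replicates 1 and 2). The window at 21700001 to 21750000, with H2bc13, H2ac13, H3c10, H2bc14, H4c11 and the olfactory receptor gene Olfr1359, had 7 and 8 on 129 and 6 and 6 on CAS. These are the intervals and promoters printed above for H2ac13, H4c11, H4c9 and H3c10. The window at 21750001 to 21800000, with H4c12, H2ac15, H2bc15, H3c11, H2ac22, the start of H2bc22 and the linker histone gene H1f5, had 6 and 6 on 129 and 4 and 7 on CAS. No more than 0.489%, 0.603% and 1.23% of all windows reached the summed counts of these 3 windows (28, 27 and 23).

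The second cluster was uneven. Its window at 23750001 to 23800000, with H2ac4, H3c2, H4c2, H4c1, H3c1, the linker histone gene H1f1 and Trim38, a ubiquitin ligase gene, had 6 and 7 counts on 129 and 6 and 6 on CAS. The neighbouring window at 23700001 to 23750000, with H3c3, H2bc3, the linker histone gene H1f2 and Hfe, a regulator of iron uptake, had 7 and 5 on 129 and 6 and 5 on CAS. Their summed counts were 25 and 23, against 28, 27 and 23 in the first cluster. The window at 23650001 to 23700000 (H2ac6, H2bc4, H4c3 and H1f6, the testis linker histone gene) was lower, with 3 and 3 on 129 and 3 and 2 on CAS.

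In the remaining windows of the second cluster the signal was low or missing. The testis pair H2bc1 and H2ac1 shares its window (23900001 to 23950000) with part of the transporter gene Slc17a4, and it had 1 count in each of the 4 columns. That window was at the middle of the genome, with 50.1% of all windows below it. The window at 23600001 to 23650000 holds an annotated upstream start of H2bc6 and the linker histone gene H1f4, and it was at 0 in all 4 columns. A count of 0 allows up to 3 counts, and 21.7% of all windows were at 0. The other annotated start of H2bc6 lies in the window before it, which was not analysed here.

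**Figure D2:**
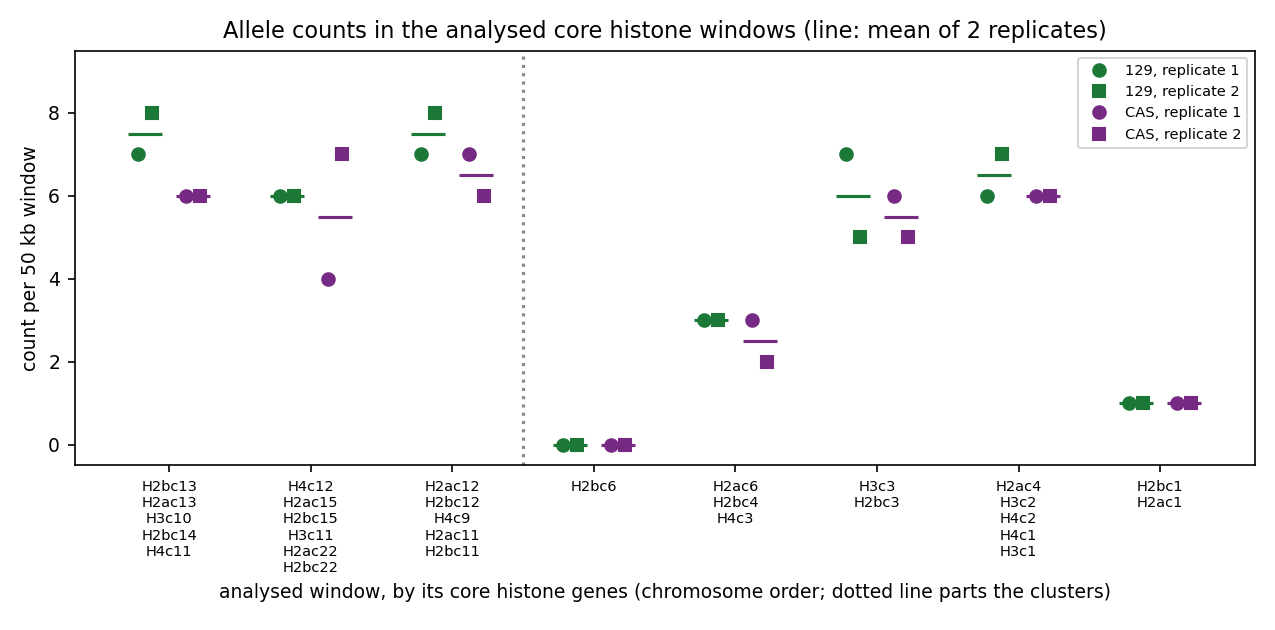
Count per 50 kb window (vertical axis) on the 129 allele (green, left of each pair) and the CAS allele (purple, right) in replicates 1 (circles) and 2 (squares), for the 8 analysed histone windows in chromosome order, named by their core histone genes; lines are means of the 2 replicates. The 129 and CAS points overlap or differ by at most 2 counts in every window, and the windows of H2bc6 and of H2bc1 with H2ac1 lie at 0 and 1.

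Set in their surroundings, the histone windows stood out from most but not all neighbours. The region of chromosome 13 from Zkscan8 to Scgn spans both clusters in 50 windows, of which 26 were analysed, 8 with a core histone gene and 18 without. Of the 8 histone windows 1 was at 0, against 11 of the 18 others, whose median was 0 counts. Of the 6 windows with the highest counts in this region 5 were histone windows, and the highest, at 21900001 to 21950000, was not: it holds the zinc finger gene Zfp184 and had 8 and 8 counts on 129 and 9 and 10 on CAS. The region between the clusters holds genes of the pheromone receptor family Vmn1r, whose 8 analysed windows had 0 to 5 counts, with 6 at 0 (14 of their 22 windows were not analysed). The 3 windows just before the first cluster, which hold olfactory receptor genes, and the 2 windows with the phosphate transporter genes Slc17a2, Slc17a3, Slc17a1 and Slc17a4 after Trim38 were also at 0 in all 4 columns.

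**Figure D3:**
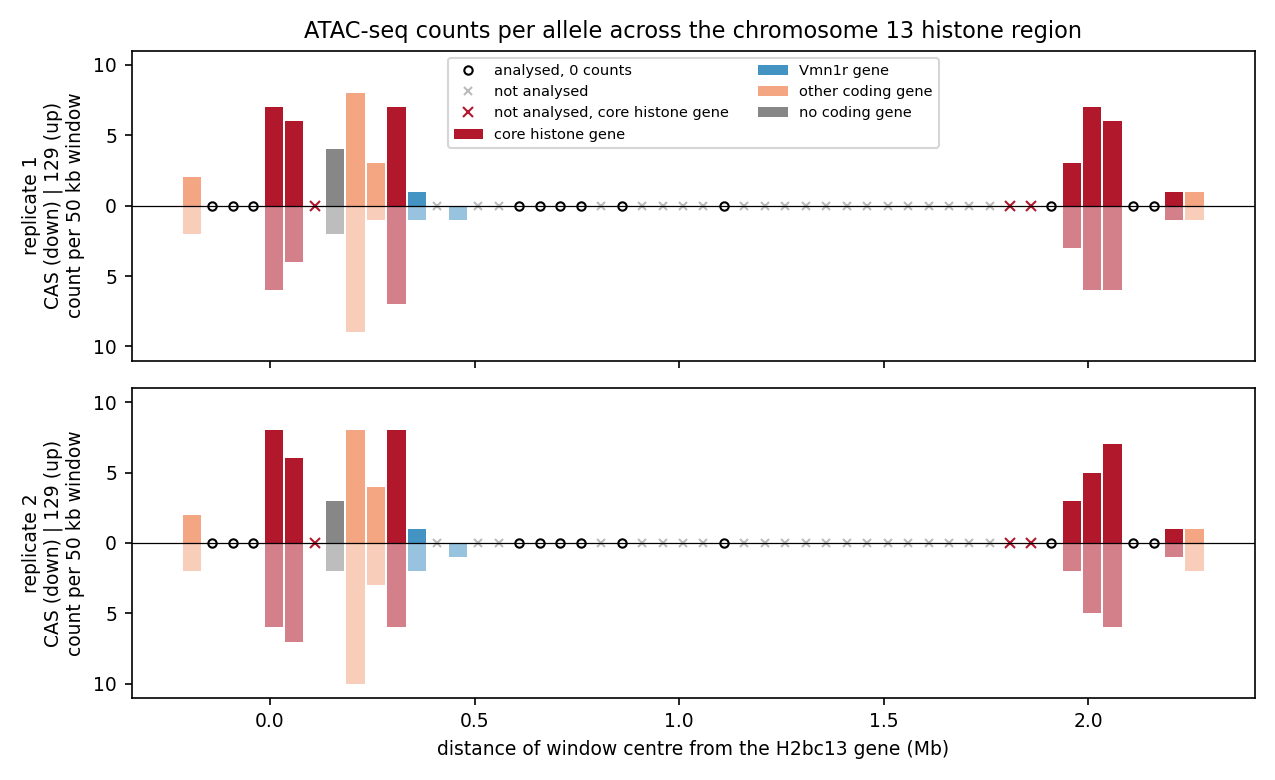
Counts per 50 kb window across the chromosome 13 region from Zkscan8 to Scgn, against the distance from H2bc13 in Mb, with 129 counts drawn upward and CAS counts downward, for replicate 1 (top) and replicate 2 (bottom); colours give the genes in the window, open circles analysed windows at 0 and crosses windows not analysed here. Windows at 0 lie just before the first cluster, between the clusters and inside the second. Up and down bars are of like height, and the tallest bar is the window of Zfp184.

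Gene density went along with these levels but not to the same height. The 6 histone windows with 4 or more coding genes had a median of 24 and a range of 11 to 28, against 8.0 in the 869 other windows with as many genes. Of those 6 windows 5 were at or above the 90th percentile of all windows (83.3%), against 31.4% of the 869. Other windows of the genome with 6 or more coding genes had a median of 10.0 counts (n = 136), those with 4 or 5 had 8.0 (n = 733), those with 2 or 3 had 6.0 (n = 6379), those with 1 had 4.0 (n = 18139) and those with 0 had 2.0 (n = 18546). The remaining histone windows were not above their class. That of H2bc6 with H1f4 (2 coding genes) had 0 counts and that of H2bc1 with H2ac1 (3 coding genes) had 4, under the 6.0 of windows with 2 or 3. The part of gene density in the histone level was not tested.

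**Figure D4:**
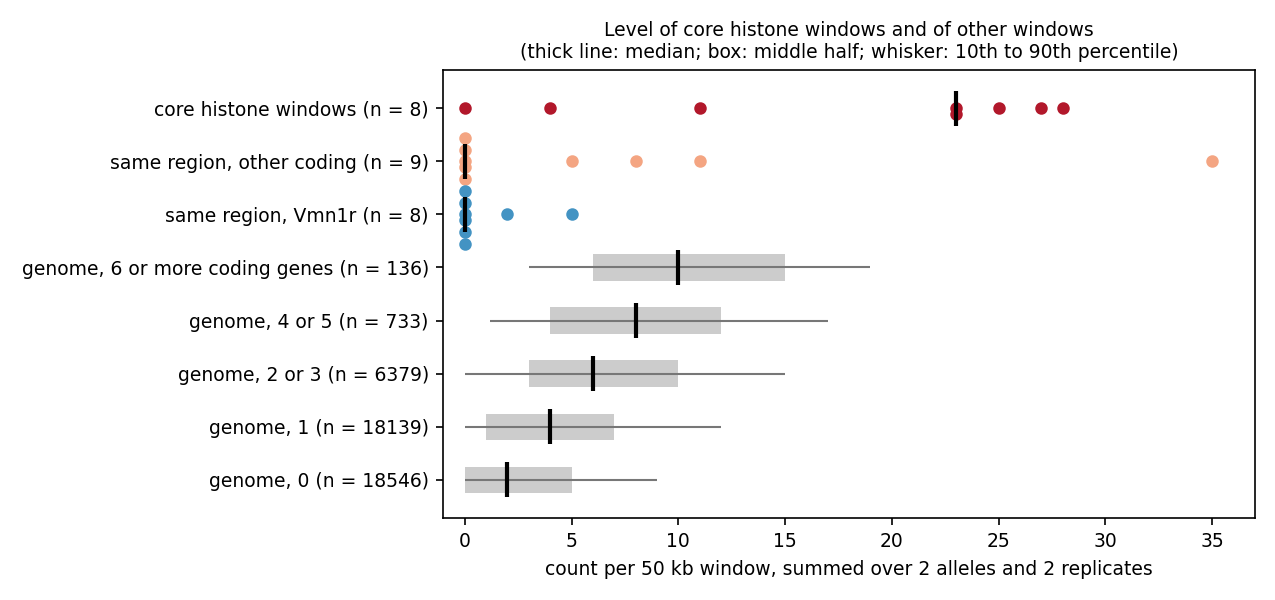
Count per 50 kb window, summed over 2 alleles and 2 replicates, for the 8 histone windows, for the other coding and the Vmn1r windows of the same region (points are single windows), and for other windows of the genome by their number of coding genes (box, 25th to 75th percentile; whisker, 10th to 90th percentile); thick lines are medians. Histone windows have a median of 23, above the 90th percentile of every gene-density class.

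Both clusters had nearly equal counts on the 2 alleles, with wide intervals. In the first cluster replicate 1 had 20 counts on 129 and 17 on CAS, and replicate 2 had 22 on 129 and 19 on CAS. The 129 share was 54.1% (exact 95% interval by Clopper-Pearson, 36.9 to 70.5%) and 53.7% (37.4 to 69.3%) in these replicates, or 53.9% ± 0.28 (SD, n = 2). In the second cluster replicate 1 had 17 on 129 and 16 on CAS, and replicate 2 had 16 on 129 and 14 on CAS. Its 129 share was 51.5% (33.5 to 69.2%) and 53.3% (34.3 to 71.7%), or 52.4% ± 1.29 (SD, n = 2). The chromosome 3 cluster was not analysed here.

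All histone intervals included 50% and overlapped widely between the clusters. Over all 8 histone windows the 129 share was 52.9% (40.6 to 64.9%) and 53.5% (41.3 to 65.5%). Chromosome 13 as a whole had 47.5% (46.0 to 48.9%) and 48.4% (47.1 to 49.6%), and all windows 48.8% and 49.9%, values that lie inside the histone intervals. The 18 other windows of the region had 52.8% (35.5 to 69.6%) and 46.3% (30.7 to 62.6%). Intervals cover counting error only and treat counts as independent. An exact permutation test of a share over 2 replicates cannot go below a two-sided p of 0.333 without pairing and 0.5 with it, so none is given for the shares.

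**Figure D5:**
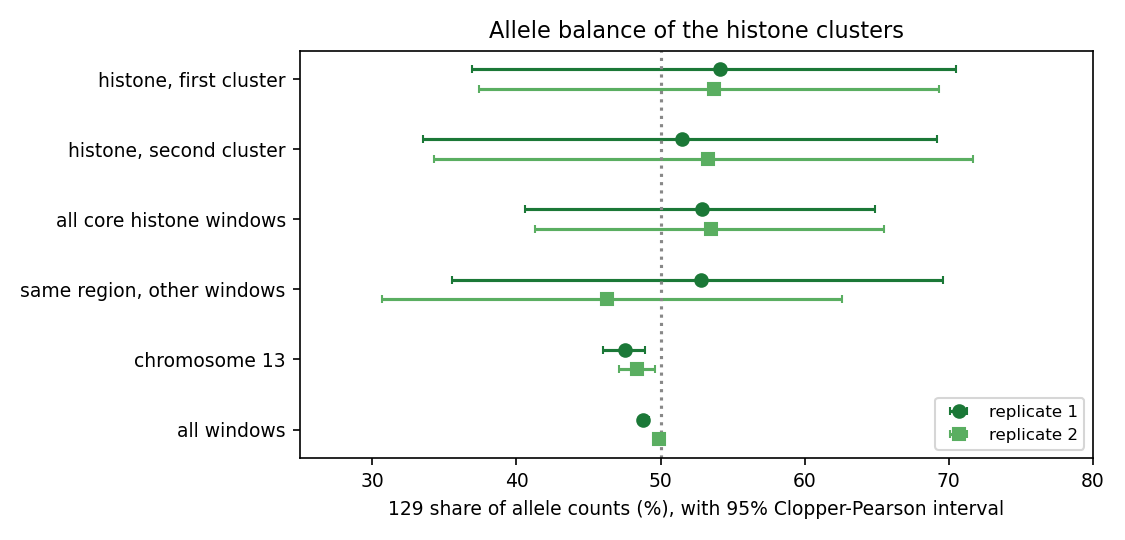
129 share of the counts on both alleles (%), with its exact 95% interval, in replicate 1 (circles) and replicate 2 (squares) for the histone clusters, all analysed histone windows, the other windows of the same region, chromosome 13 and all windows. The histone shares lie between 51.5% and 54.1%, with intervals that span 50%.

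Window by window the alleles stayed close. In every one of the 8 histone windows the 129 and CAS counts differed by at most 2 in each replicate, as in 94.0% of all windows, most of which have few counts. Of the 5 most open histone windows, with 23 to 28 summed counts, 5 had such small differences in both replicates, against 63.9% of the 357 other windows in that range. Counts in this table vary less between alleles than independent reads would. Relative to the variance that a binomial split gives, the 6 histone windows with 4 or more counts in a replicate had 0.13 in replicate 1 and 0.157 in replicate 2. Over all windows with 4 or more counts (9297 and 13130 windows) it was 0.327 and 0.468. The 6 windows are few and the wider set was not matched to them by count, so nothing particular to histone windows is read from this. Only the window of H2bc13, H2ac13, H3c10, H2bc14 and H4c11 was higher on 129 in both replicates (7 against 6, then 8 against 6), which is 1 of 8 windows, beside 8.96% of all windows. After scaling by the genome-wide totals of each allele, which are larger for CAS, 6 of the 8 were higher on 129 in both, beside 29.5% of all windows. Ties with counts fall on the 129 side under that scaling, so nothing particular to the histone windows is read from it. None was higher on CAS in both, beside 9.87% of all windows.

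The test across the whole table called no allelic difference in histone windows. edgeR's quasi-likelihood test with Benjamini-Hochberg adjustment covered the 34417 windows with at least 1 count and called 0 of them (0%). An unadjusted p below 0.05 was reached by 910 of these 34417 windows and by 0 of the 7 histone windows among them. At that share 7 windows are too few for a 0 to say anything about them. DESeq2 also called 0. The 7 histone windows with counts had log2 differences (129 over CAS) between 0 and 0.32, with a median of 0.13 beside 0 over all windows tested. The largest was that of the H2bc13 window, 0.32 with a counting SE of 0.56 (edgeR adjusted p = 0.999). Its 95% interval from counting error, -0.78 to 1.41, treats the counts as independent, although they varied less than that.

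Sums over 1 Mb raised the counts but led to no call for the histone bins. The bin from 21 to 22 Mb, with most of the first cluster and its neighbours, had 58 and 56 counts for 129 and 43 and 53 for CAS, a log2 difference of 0.31 (counting SE 0.20, 95% interval -0.09 to 0.70, edgeR adjusted p = 0.996). The bin from 22 to 23 Mb had 8 and 9 for 129 and 9 and 9 for CAS, and the bin from 23 to 24 Mb, with the second cluster, 18 and 17 on 129 and 17 and 16 on CAS. Their log2 differences were -0.04 (interval -1 to 0.91) and 0.13 (-0.56 to 0.82), both with an edgeR adjusted p of 0.996. Of 2337 bins edgeR called 0 (0%), 65 had an unadjusted p below 0.05, and DESeq2 called 0. With the replicate block, which pairs the alleles of a library, edgeR called 7 of the 2337 bins and 0 of the 3 histone bins. At that share 3 bins are too few for a 0 to say anything about them.

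Linker histone genes follow their windows. H1f1 shares its window with H2ac4 to H3c1 and H1f2 with H3c3 and H2bc3, so their 25 and 23 summed counts are those given above, as are the 23 of H1f5. H1f6 had 11 summed counts and H1f4 had 0. None of the 5 linker histone genes analysed, out of 6, was higher on the same allele in both replicates. Of all windows, 8.96% were higher on 129 in both and 9.87% on CAS. The windows of these 5 genes are core histone windows counted above, so nothing further is read from them.

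Histone variant genes lie outside the clusters and are mostly expressed outside S phase as well. All 11 in the list had counts, with a median of 13 per window. H2az1, which encodes the variant H2A.Z, had 4 and 6 counts for 129, against 4 and 7 for CAS. H2ax, whose product is phosphorylated at DNA breaks, had 5 and 5 for 129 and 4 and 5 for CAS. H2az2, a second H2A.Z gene, had 5 and 5 for 129 and 5 and 4 for CAS. All 3 were a little under the level of the open histone windows, and their alleles overlapped. Macroh2a2, summed over 2 windows, was higher on 129 in both replicates (2 and 3 counts, against 1 and 0 on CAS). That makes 1 of the 11, and 0 of the 11 were higher on CAS, beside 8.96% and 9.87% of all single windows.

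Genes that act on histone genes, on their mRNA or, as chaperones, on histone proteins had a median of 7.5 counts per window over 29 analysed of 31 genes. Slbp, the protein that binds the histone stem-loop, had 3 and 4 counts on each allele over 2 windows. Npat, the coactivator of histone transcription that cyclin E and Cdk2 phosphorylate, had 2 and 3 counts for 129 and 3 and 3 for CAS over 2 windows. Hinfp, the H4 promoter factor, lies over 2 windows, of which one was at 0 and the other is that of H2ax, so its 5 and 5 counts for 129 and 4 and 5 for CAS are those given for H2ax. The highest level per window was that of Chaf1a, the large subunit of the histone chaperone CAF-1, whose 2 windows summed to 10 and 10 for 129 and 9 and 11 for CAS. Cdk2 followed with 10 and 11 on 129 and 6 and 10 on CAS, summed over 2 windows.

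In both replicates 7 of these 29 genes had more counts on 129 and 3 had more on CAS, beside 8.96% and 9.87% of all single windows. These shares are not alike in unit: most of the genes sum several windows, while 21.7% of all windows were at 0 and cannot differ. No excess on either allele is read from them. Ccne1, which encodes cyclin E1, was the single gene with a difference of 3 or more counts in both, with 4 and 6 counts for 129, against 8 and 9 for CAS, over its 2 windows. Of all single windows 0.271% had such a difference towards CAS and 0.234% towards 129. Windows are shared with other genes, and no test was made for the list.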

How the data were processed

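Allele-specific ATAC-seq counts of 2 replicates of F121-6 cells were deposited by the authors as 1 table of whole-number counts per 50 kb window and allele (4 columns, 43941 windows). Per the submitters' processing notes the build was mm10 and the tools included Bowtie2, MACS2, SAMtools and bedtools, with no version or role named. The sources used here do not give what was counted, how alleles were assigned or how windows were chosen. Totals ranged from 44026 to 59995 per column, and few counts per window limit the precision.

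The members and gene lists were chosen with earlier results of these data known. A window belongs to a gene if they share a base. Genes less than 500 kb apart formed a cluster. Gene positions, starts and promoters are those of RefSeq on GRCm38.p6, with coordinates counted from 1. Named beyond the members were the other genes of the 4 highest windows of the region, the 3 highest genes of each list per window, and those with a difference of 3 or more counts in both replicates, besides neighbours and factors chosen after their values were seen.

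Counts were tested with edgeR 4.0.16 (R 4.3.3), by the quasi-likelihood test with TMM scaling, over all windows with a count and over 1 Mb bins with at least 10 counts, at a Benjamini-Hochberg adjusted p of 0.05. Counting SEs and intervals of log2 differences come from the summed counts of each allele. DESeq2 1.42.0 was an alternative. The fits were also run on simulated data with independent counts. The counts here vary less than that between alleles, so this step does not show how the tests behave on such counts. Each library yields both alleles, so alleles are paired by replicate, and across windows the deviations of 129 and CAS from their means had a correlation of r = 0.291.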

Additional observations from a re-analysis of the deposited data

How the results depend on the processing

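No alternative called a histone window or a 1 Mb bin with a histone gene; none of the 8 windows passed the filterByExpr filter (minimum count 10), so that alternative tests none of them. Over the whole table, 1 window was called with the alleles of a replicate given 1 shared library size and 2 with a minimum of 10 counts, against 0. With the replicate block edgeR called 0 windows and 7 of the 2337 bins of 1 Mb, against 0 bins without it. Of the 3 histone bins it called 0 (edgeR adjusted p = 0.83, 0.989 and 0.982 with the block). The 129 share of the first cluster was 54.4% with 1 window added on either side and 54.5% when scaled by the allele totals, and 53.7 to 54.1% without either replicate; that of the second cluster was 51.5 to 53.3% without either replicate. The mean of the histone windows was 2.94 times the genome-wide mean when windows at 0 were left out of the genome-wide mean, and 3.26 to 4.26 times it without either replicate. The number of histone windows higher on 129 in both replicates was 6 after scaling by the allele totals (29.5% of all windows), by which ties turn towards 129, and 0 at a difference of 2 or more counts, against 1; that for CAS was 0 under each. Depth limits all allele comparisons of single windows, and 28 of the 57 genes have no analysed window.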
